A study of Rattus norvegicus with 12 samples.

Results

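The genes described here are 30 enzymes, transporters and carriers of the citrate cycle, of the entry of pyruvate into it and of the shuttles around it, taken by gene symbol out of 21239 genes with counts. They fall into 5 roles: 7 genes of pyruvate entry, 6 genes from citrate to 2-oxoglutarate, 5 genes from 2-oxoglutarate to succinate, 6 genes of the malate and aspartate shuttle, and 6 genes of glutamate, malic enzymes, citrate export and phosphoenolpyruvate. RNA from tissue labelled as left atrium of 12 rats was sequenced in 4 groups of 3 libraries. The normotensive WKY rats and the spontaneously hypertensive rats (SHRs) of the control groups were given saline at 7.5 ml/kg/day for 4 weeks. The ARB group were SHRs on 30 mg/kg/day of valsartan, which blocks the angiotensin receptor, and the ARNI group were SHRs on 60 mg/kg/day of sacubitril/valsartan, which adds an inhibitor of neprilysin. Both drugs were given for 4 weeks. The study's methods give an age of 14 weeks at purchase. SHRs are an inbred strain whose hypertension is inherited through many loci, so a difference from WKY rats is also a difference between strains.

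Pyruvate from glycolysis crosses the inner mitochondrial membrane through the mitochondrial pyruvate carrier and is turned into acetyl-CoA by the pyruvate dehydrogenase complex. The citrate cycle oxidises acetyl-CoA and hands the electrons to the respiratory chain, while the malate and aspartate shuttle brings the electrons of cytosolic NADH into the mitochondrion. Heart muscle draws most of its energy from this route, and ventricular muscle, which does more work than atrial muscle, is known to be richer in mitochondria.

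The labels of the libraries are in conflict and were checked before any comparison. For the 6 WKY and SHR libraries, the strain words of the titles contradict the names of the libraries, and the groups were set by the names. The strain label itself reads Wistar-Kyoto for all 12 libraries, those of the ARB and ARNI groups included, and could not be used to tell the strains apart. Under the title words the direction of every difference between SHR and WKY would turn. The respiratory chain gene copy Ndufa10l1 set the libraries named WKY apart from the rest: it was at 0 in all 3 WKY libraries and at 54.0 to 119 CPM (counts scaled to a library total of 1000000) in the libraries of the SHR, ARB and ARNI groups. The tissue label was also checked, with the ventricular light chain share, which is Myl2 as a percentage of the sum of Myl2 (the ventricular myosin light chain) and Myl7 (the atrial one). This share was 99.6%, 99.9% and 99.97% in the WKY libraries, so the defining atrial marker was nearly missing there: Myl7 was at 0.889 to 15.9 CPM in WKY. The share was 0.0069%, 33.9% and 0.0015% in SHR 1 to 3. It was 0.025%, 0.042% and 33.3% in ARB 1 to 3, and 0.046%, 99.8% and 0.319% in ARNI 1 to 3. SHR 2 and ARB 3 thus held light chains of both chambers, and ARNI 2 held hardly any of the atrial one. In WKY against SHR the strain and the chamber cannot be told apart, and every result below is given with this in view. In bulk tissue, fewer cells of a type and less RNA per cell cannot be told apart either. Total counts were 11252361 to 15823525 per library, so that 3 counts stood for 0.190 to 0.267 CPM, and all 30 genes passed the filter on low counts in every comparison.

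The promoters of 29 of the 30 genes were found in RefSeq (GRCr8), each with 250 bases before and 50 after the gene's start; Idh3a was not matched. Both strands were searched for 7 sequences bound by regulators of mitochondrial genes or of heart muscle, because most of the genes moved together between libraries. TGACGTCA, the cyclic AMP response element, was in 1.83% of all 33469 promoters and in those of Ogdh and Mdh2. AAGATGGCG, bound by YY1, was in 1.73% of all promoters and in those of Idh3g, Suclg2 and Pdhx. CCGGAAG, bound by ETS factors, was in 8.75% of all promoters and in those of Idh3g, Dlst, Mdh2, Mpc2 and Glud1. GCATGCGC, the core of the NRF1 site, was in 2.47% of all promoters and in that of Glud1. The other 3 sequences were in 0 of these 29 promoters: AAGGTCA, the site of estrogen-related receptors, and the longer TCAAGGTCA that holds it were in 4.61% and 0.433% of all promoters, and CTATTTTTA, a MEF2 site, was in 0.514%. The promoters of 3 genes that carry results below are printed, 5′ to 3′ in the direction of the gene, with the match in capitals: Ogdh on chromosome 14 (GRCr8, chr14:85363781-85364080, plus strand) and Mdh2 on chromosome 12 (chr12:26543792-26544091, minus strand) with TGACGTCA, and Pdhx on chromosome 3 (chr3:109886685-109886984, minus strand) with AAGATGGCG.
Ogdh: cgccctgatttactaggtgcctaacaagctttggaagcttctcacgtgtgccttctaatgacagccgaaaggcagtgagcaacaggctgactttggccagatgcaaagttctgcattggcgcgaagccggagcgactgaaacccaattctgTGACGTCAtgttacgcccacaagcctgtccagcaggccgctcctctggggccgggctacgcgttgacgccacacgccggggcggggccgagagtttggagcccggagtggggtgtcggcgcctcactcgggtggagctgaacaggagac
Mdh2: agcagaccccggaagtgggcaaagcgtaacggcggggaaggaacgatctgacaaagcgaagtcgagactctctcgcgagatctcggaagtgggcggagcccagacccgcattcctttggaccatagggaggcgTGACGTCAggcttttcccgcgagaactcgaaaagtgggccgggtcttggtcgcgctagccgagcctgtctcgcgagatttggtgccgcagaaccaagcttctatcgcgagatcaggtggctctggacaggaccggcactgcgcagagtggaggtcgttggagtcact
Pdhx: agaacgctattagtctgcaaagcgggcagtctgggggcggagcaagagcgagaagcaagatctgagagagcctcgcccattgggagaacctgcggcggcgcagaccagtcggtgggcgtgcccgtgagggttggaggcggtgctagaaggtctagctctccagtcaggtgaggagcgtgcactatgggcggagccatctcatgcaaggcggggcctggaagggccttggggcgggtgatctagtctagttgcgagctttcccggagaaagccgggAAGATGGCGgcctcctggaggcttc

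The summed level of the 30 genes was 20273, 20072 and 20548 CPM in WKY 1 to 3. It was 10330.1, 17135 and 9959 CPM in SHR 1 to 3, 10251, 11016 and 15980.5 CPM in ARB 1 to 3, and 10074, 21605 and 12698 CPM in ARNI 1 to 3. The group means were 20298 ± 239 CPM in WKY, 12475 ± 4040.3 in SHR, 12416 ± 3111 in ARB and 14793 ± 6044 in ARNI (SD, n = 3 each). The highest library of the SHR, ARB and ARNI groups was in each case the one with the most ventricular light chain, and ARNI 2 lay above all WKY libraries. Marker genes of cardiomyocytes of either chamber (8 genes) summed to 69529 to 72455 CPM in WKY and to 62231 to 83307 CPM in the other groups, so the groups overlapped in that sum. The genes in it did not move alike. Myh6, the largest, was higher in SHR (31027 to 35555 CPM) than in WKY (23538 to 26700 CPM). Actc1, Tnnt2, Tnnc1 and Ttn were lower in SHR without overlap, and Tnni3, Ryr2 and Actn2 overlapped. The median coefficient of variation of the 30 genes was 3.68% within WKY, 32.3% within SHR, 25.5% within ARB and 40.0% within ARNI.

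**Figure D1:**
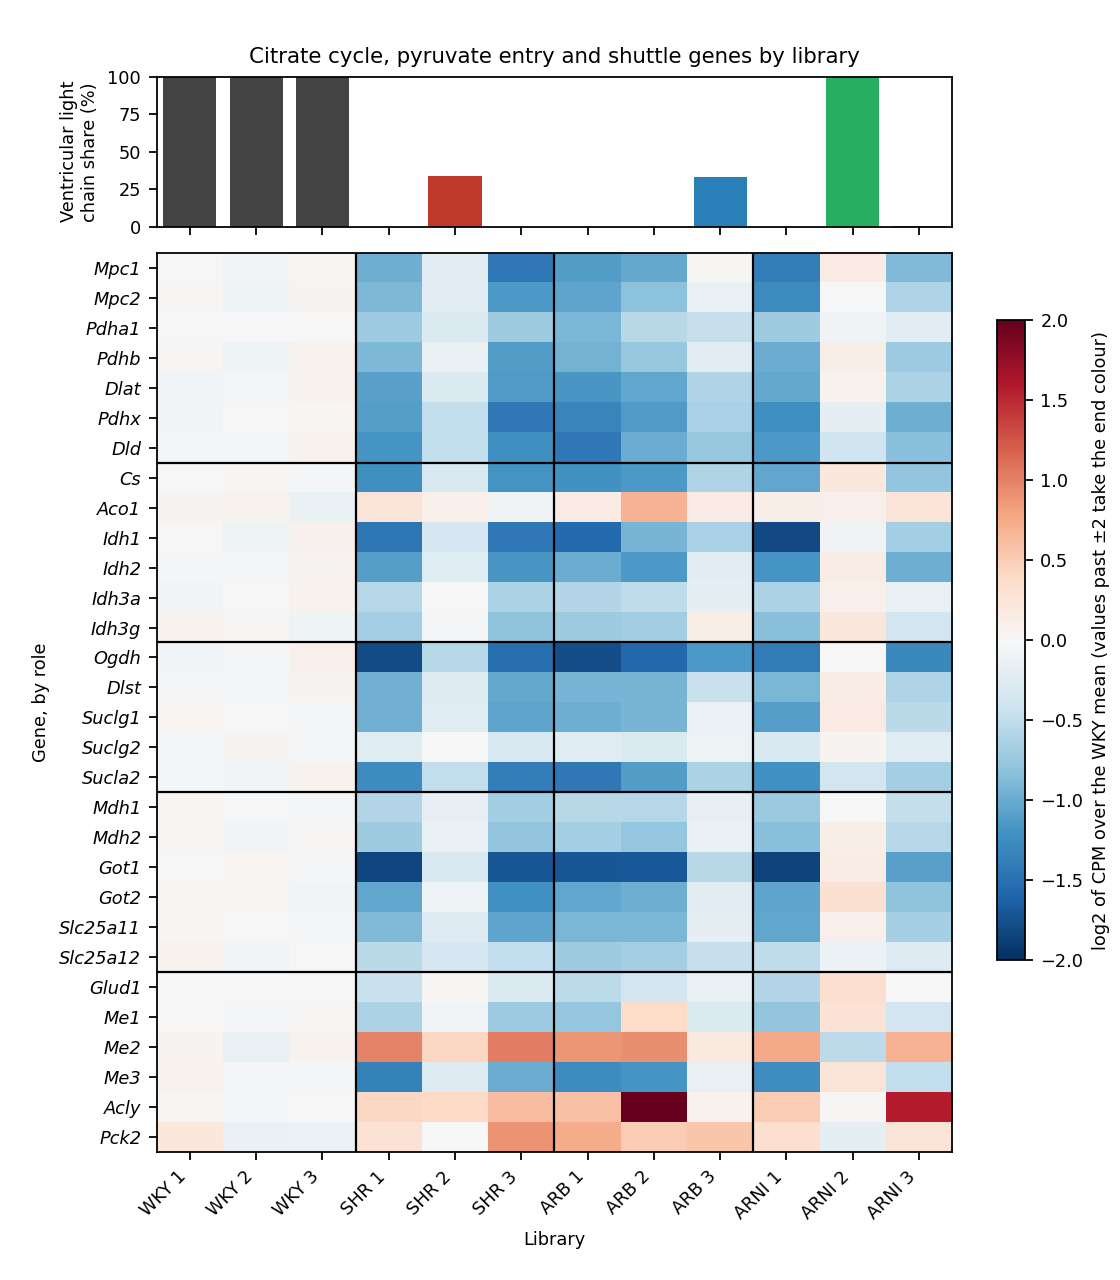
Heat map of the 30 genes (vertical axis, by role, with lines between roles) in the 12 libraries (horizontal axis), with colour for log2 of CPM over the WKY mean and, above, bars for the ventricular light chain share in %. Most genes were pale in WKY, SHR 2, ARB 3 and ARNI 2 and blue in the other 6 libraries, while Me2 ran the other way and Acly stood out in ARB 2 and ARNI 3.

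Saline-treated SHR were compared with saline-treated WKY to find what differed at an early stage of hypertension. Of the 30 genes, 6 were lower and 2 higher in SHR by edgeR's quasi-likelihood test at an adjusted p of at most 0.05, against 8.26% of all genes tested called lower and 12.3% called higher (20.6% in either direction). Those lower were the pyruvate dehydrogenase subunits Dld, Pdhx and Pdha1, the cycle enzymes Ogdh and Sucla2, and the carrier Slc25a12. Those higher were Me2 and Acly. The log2 fold change was below 0 for 27 of the 30 genes, with a median of -0.81, against 0.01 over all 13794 genes tested. All 3 SHR libraries were below all 3 WKY libraries for 22 genes and above them for 2, against 15.9% and 33.7% of all genes, and the groups overlapped for 6. With a log2 fold change of 1 or more in size required as well, 4 genes passed by edgeR (Dld, Pdhx, Sucla2 and Ogdh), all lower, against 3.35% of all genes lower in this way. The study set this limit on results of DESeq2, by which Idh1 and Got1 passed too, 6 genes in all. The share of all genes that passed by DESeq2 is not given here, so this count cannot be read alone. Marker lists of other cell types also differed between these libraries without overlap. Mesothelial and epicardial markers (6 of 6 with counts) summed to 58.5 to 78.6 CPM in WKY and 202 to 419 CPM in SHR. Among them Wt1 overlapped, at 14.2 to 21.2 CPM in WKY and 13.6 to 18.0 CPM in SHR. Neuron markers (5 of 5) summed to 5.33 to 5.71 CPM in WKY and 9.15 to 17.7 CPM in SHR. Prph was the largest part of that sum, and Chrna3 was at 0 in both groups. Smooth muscle markers (4 of 4) summed to 153 to 204 CPM in WKY and 101 to 140 CPM in SHR. Among them Myh11 and Tagln were lower in SHR without overlap, while Acta2 and Cnn1 overlapped. Fat cell markers (8 of 8) summed to 366 to 489 CPM in WKY and 207 to 361 CPM in SHR. Fabp4 was the largest part of that sum (268 to 359 and 104 to 251 CPM), and Lipe overlapped. Adipoq, Plin1 and Cidec were at 0 in WKY 1 and WKY 2, at most 7.29 CPM in WKY 3 and at most 0.552 CPM in SHR. Their part in the differences of the 30 genes was not tested.

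In pyruvate entry, the smallest p between SHR and WKY belonged to Dld (NCBI gene 298942), the dihydrolipoamide dehydrogenase shared by the pyruvate and 2-oxoglutarate dehydrogenase complexes. Dld was at 449, 451 and 486 CPM in WKY, 205, 329 and 197 CPM in SHR, 171, 233 and 274 CPM in ARB, and 209, 352 and 258 CPM in ARNI. Every WKY library lay above every other library, and SHR 2, ARB 3 and ARNI 2 were the highest of the rest. Dld fell by 1.05 on the log2 scale in SHR (SE 0.25, edgeR adjusted p = 0.0316). Pdhx, which anchors Dld in the pyruvate dehydrogenase complex, was at 109, 115 and 118 CPM in WKY and at 53.4, 80.7 and 42.3 CPM in SHR. It fell by 1.07 (log2, SE 0.26, edgeR adjusted p = 0.0351). Pdha1, the catalytic alpha subunit of the complex, fell by 0.68 (log2, SE 0.19, edgeR adjusted p = 0.0492), with 1353 to 1379 CPM in WKY and 829 to 1129.9 CPM in SHR. Pdhb, its beta subunit, was at 459, 424 and 476 CPM in WKY, 243, 407 and 209 CPM in SHR, 236, 269 and 388 CPM in ARB, and 228, 491 and 273 CPM in ARNI. The SHR libraries were all below WKY here too, but SHR 2 came close to WKY 2, and Pdhb was not called (log2 fold change -0.78, SE 0.29, edgeR adjusted p = 0.0938). The pyruvate carrier subunits Mpc1 and Mpc2 and the complex's acetyltransferase Dlat were not called either, with log2 fold changes of -0.90, -0.81 and -0.89 (edgeR adjusted p = 0.0905, 0.074 and 0.0611).

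From citrate to 2-oxoglutarate, 0 of 6 genes were called by edgeR. Of these 6, 3 had an unadjusted p under 0.05, against 39.4% of all genes tested. DESeq2 called 3, and its share over all genes is not given here. Citrate synthase (Cs, NCBI gene 170587), which joins acetyl-CoA to oxaloacetate, was at 790.3, 803 and 761 CPM in WKY, 336, 629.9 and 341 CPM in SHR, 339.9, 352 and 519.6 CPM in ARB, and 380.2, 909 and 453 CPM in ARNI. The SHR libraries lay below WKY without overlap, and ARNI 2 lay above every WKY library. The log2 fold change of Cs between SHR and WKY was -0.96 (SE 0.29, edgeR adjusted p = 0.0582). Those of the isocitrate dehydrogenases were -1.08 for the cytosolic Idh1, -0.89 for the mitochondrial, NADP-dependent Idh2, and -0.50 and -0.59 for the subunits Idh3a and Idh3g of the NAD-dependent enzyme of the cycle. Aco1, the cytosolic aconitase that also binds iron-responsive RNA, stood apart with -0.03 (95% interval -0.34 to 0.28): it was at 62.7 to 72.3 CPM in WKY and at 65.3 to 82.0 CPM in SHR.

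From 2-oxoglutarate to succinate, Ogdh and Sucla2 were lower in SHR. Ogdh (NCBI gene 360975), the first subunit of the 2-oxoglutarate dehydrogenase complex, was at 2156, 2190.2 and 2407 CPM in WKY, 654, 1521 and 789 CPM in SHR, 658, 755 and 1012 CPM in ARB, and 850.1, 2250.2 and 921 CPM in ARNI. WKY and ARNI 2 shared one range, SHR 2 came next, and the other 7 libraries lay between 654 and 1012 CPM. Ogdh fell by 1.30 (log2, SE 0.36, edgeR adjusted p = 0.0456) in SHR, the largest fall among the 30 genes in this comparison. Sucla2 (NCBI gene 361071), the subunit that gives succinyl-CoA ligase its preference for ADP, was at 515, 506 and 551 CPM in WKY, 219, 371 and 201 CPM in SHR, 195, 243 and 337 CPM in ARB, and 227, 405 and 329 CPM in ARNI. All 9 libraries of the SHR strain were below WKY. Sucla2 fell by 1.11 (log2, SE 0.28, edgeR adjusted p = 0.0367). Its counterpart for GDP, Suclg2, was at 182 to 193 CPM in WKY and at 149.5 to 188 CPM in SHR, and was not called (log2 fold change -0.30, 95% interval -0.64 to 0.04). The ratio of Sucla2 to Suclg2 within a library was 2.82 ± 0.204 in WKY and 1.57 ± 0.351 in SHR (SD, n = 3 each), and over the 9 libraries of the SHR strain it ran from 1.24 to 2.09, below the lowest WKY value of 2.62. Dlst and Suclg1, the other subunits of these 2 enzymes, had log2 fold changes of -0.82 each and were not called (edgeR adjusted p = 0.0635 and 0.0637).

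In the malate and aspartate shuttle, Slc25a12 (NCBI gene 362145), an exchanger of aspartate and glutamate in the inner membrane, was the 1 gene called. It was at 226, 208 and 214 CPM in WKY, 148, 171 and 154 CPM in SHR, 133, 135 and 157 CPM in ARB, and 151, 199 and 182 CPM in ARNI. The SHR libraries lay close together and below WKY, and Slc25a12 fell by 0.59 (log2, SE 0.12, edgeR adjusted p = 0.0216), the smallest adjusted p of the 30 genes. Got2, the mitochondrial aspartate aminotransferase, was at 1423, 1431 and 1341 CPM in WKY, 682, 1309 and 606 CPM in SHR, 677, 713 and 1214 CPM in ARB, and 677, 1723 and 803 CPM in ARNI. SHR 2 and ARB 3 lay just under WKY and ARNI 2 well above it, and Got2 was not called (log2 fold change -0.80, SE 0.33, edgeR adjusted p = 0.124). Its cytosolic partner Got1 had a log2 fold change of -1.21 with a wide error (SE 0.44, edgeR adjusted p = 0.0939). Mdh1 and Mdh2, the cytosolic and mitochondrial malate dehydrogenases, and Slc25a11, the carrier of malate and 2-oxoglutarate, had log2 fold changes of -0.59, -0.64 and -0.81 and were not called (edgeR adjusted p = 0.0876, 0.0982 and 0.0587). The ratio of Got1 to Got2 was 0.735 ± 0.0162 in WKY and 0.526 ± 0.106 in SHR (SD, n = 3 each) and did not overlap between them. The ratio of the malate dehydrogenases Mdh2 to Mdh1 was 0.989 ± 0.0370 in WKY and 0.945 ± 0.0567 in SHR and overlapped.

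The 2 genes higher in SHR belong to the last role. Me2 (NCBI gene 307270), the mitochondrial malic enzyme that turns malate into pyruvate with NAD, was at 9.13, 7.92 and 9.23 CPM in WKY, 17.5, 11.7 and 17.7 CPM in SHR, 16.1, 16.7 and 10.1 CPM in ARB, and 14.7, 6.10 and 14.2 CPM in ARNI. ARNI 2 was the lowest of all 12 libraries, and ARB 3 and SHR 2 were the lowest of their groups. Me2 rose by 0.69 (log2, SE 0.17, edgeR adjusted p = 0.037). Acly (NCBI gene 24159), which splits exported citrate into acetyl-CoA for lipid synthesis, was at 26.5, 25.6 and 25.8 CPM in WKY, 34.6, 34.4 and 39.8 CPM in SHR, 38.9, 264 and 27.3 CPM in ARB, and 37.0, 26.3 and 76.7 CPM in ARNI. The WKY and SHR libraries were narrow and separate, and ARB 2 and ARNI 3 were far above both. Acly rose by 0.34 (log2, SE 0.08, edgeR adjusted p = 0.0302). The other malic enzymes went the other way in value and were not called: the cytosolic Me1 had a log2 fold change of -0.56 and the mitochondrial, NADP-dependent Me3 one of -0.92 (edgeR adjusted p = 0.105 and 0.0657). Glutamate dehydrogenase Glud1 (-0.35) and the mitochondrial phosphoenolpyruvate carboxykinase Pck2 (0.29) were not called.

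**Figure D2:**
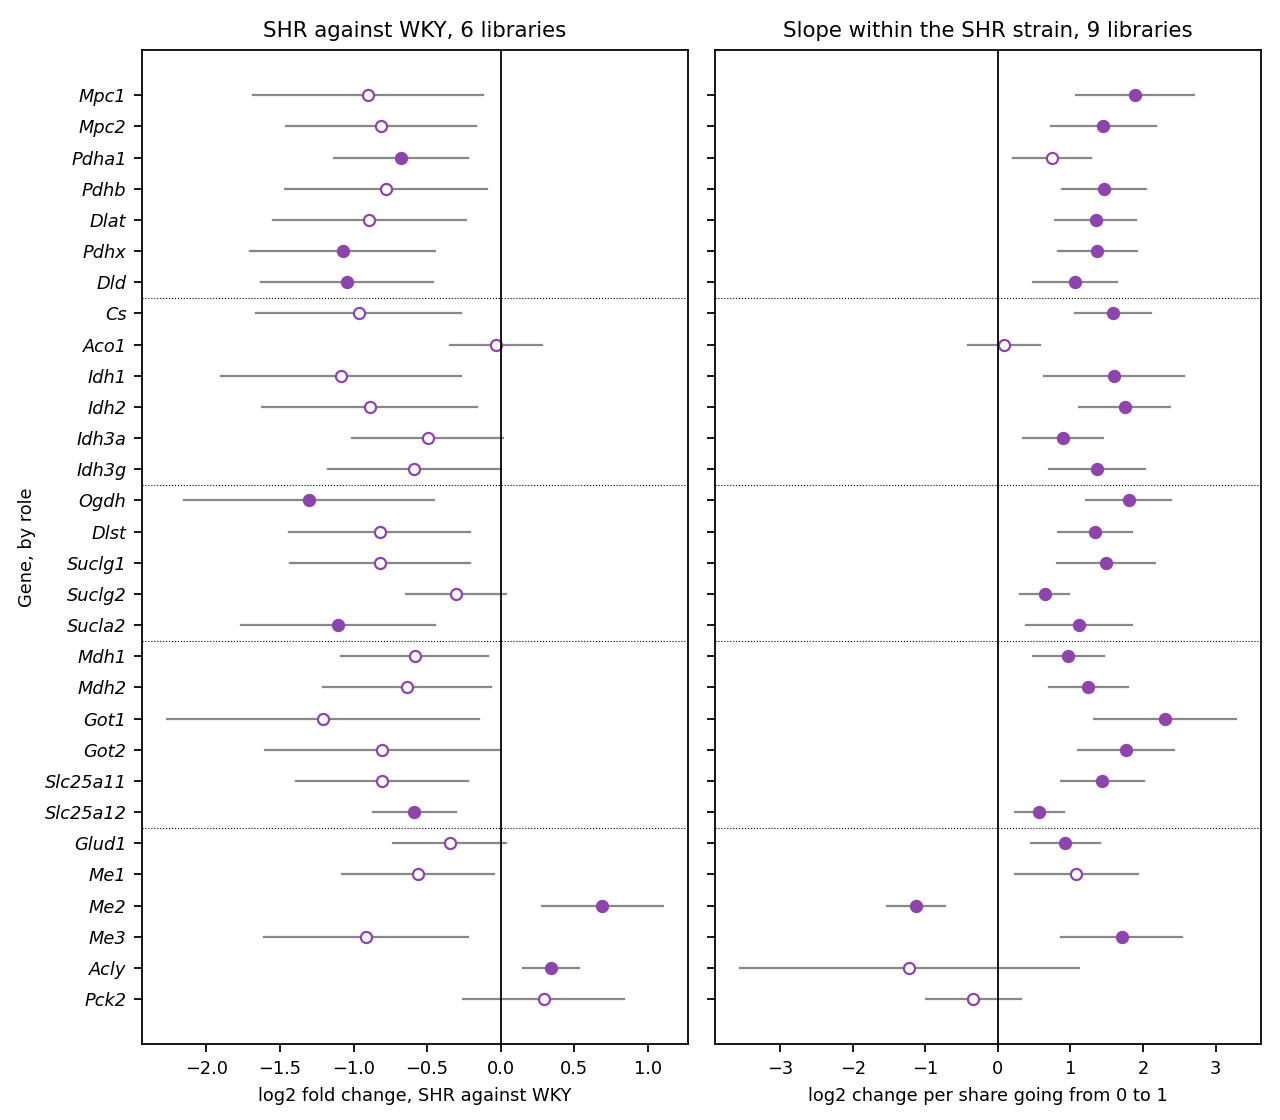
Estimates with 95% intervals for each gene (vertical axis, by role): left, log2 fold change of SHR against WKY over 6 libraries, and right, log2 change as the ventricular light chain share goes from 0 to 1 over the 9 libraries of the SHR strain, with filled points for an adjusted p of at most 0.05. The left panel has 8 filled points and the right panel 25, and genes to the left of 0 in the first are mostly to the right of 0 in the second.

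These 8 calls rested on few libraries. Without SHR 2, the SHR library with light chains of both chambers, 28 genes were called; without SHR 3, 3 were called; and without SHR 1, WKY 1, WKY 2 or WKY 3, 0 were called by edgeR, with 10, 15, 16 and 15 under an unadjusted p of 0.05. DESeq2 on all 6 libraries called 23 genes, 21 lower and 2 higher. The share of all genes called in each of these fits is not given here, so the counts show only how far the calls moved. With SHR 2 as the lone SHR library, an alternative chosen after seeing the data in which it is assumed to vary like the WKY libraries, 14 genes were called, all lower, with Ogdh at -0.62, Dld at -0.55, Pdhx at -0.55 and Sucla2 at -0.55.

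Because the share of ventricular light chain differed so much within the SHR strain, the change of each gene with that share was estimated over its 9 libraries, with the group as a covariate. Values of the share fell into 3 clusters (at most 0.319% in 6 libraries, 33.3% and 33.9% in ARB 3 and SHR 2, and 99.8% in ARNI 2), so that the slope rests on 3 libraries, and no correlation is given. Of the 30 genes, 24 rose and 1 fell with the share (edgeR adjusted p of at most 0.05), against 10.8% of all 14278 genes tested rising and 7.94% falling (18.7% in either direction). The median slope of the 30 genes was 1.34 on the log2 scale as the share goes from 0 to 1, against -0.06 over all genes. Without ARNI 2, 20 genes were called, and without ARNI 1, 13 were, with the share of all genes in these fits not given here. With the replicate number as a block (samples of the same number deviated together in ARNI and SHR, but not throughout in ARB), 0 of the 25 calls remained, the median slope was 1.23 and 24 genes had an unadjusted p under 0.05. With library totals in place of TMM scaling the median of all genes moved by more than 0.1, to -0.30 for the slope and to 0.15 for SHR against WKY.

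Rising genes stood in every role. In pyruvate entry 6 of 7 rose, with Pdhb at 1.46 (SE 0.25, edgeR adjusted p = 0.00964), Mpc1 at 1.89 and Dld at 1.06. Pdha1 was the exception, with 0.75 (edgeR adjusted p = 0.0613). From citrate to 2-oxoglutarate 5 of 6 rose, with Cs at 1.59 (SE 0.23, edgeR adjusted p = 0.00668) and Idh2 at 1.75, while Aco1 had 0.08 (95% interval -0.41 to 0.58). From 2-oxoglutarate to succinate all 5 rose, with Ogdh at 1.80 (SE 0.25, edgeR adjusted p = 0.00662) and the lowest, Suclg2, at 0.65. In the shuttle all 6 rose, with Got2 at 1.77 (SE 0.28, edgeR adjusted p = 0.0081), Got1 at 2.31, the largest slope of the 30 genes, and Slc25a12 at 0.57, the smallest of those that rose. In the last role Me3 (1.70) and Glud1 (0.93) rose and Me2 fell by 1.13 on the log2 scale (SE 0.17, edgeR adjusted p = 0.0072). Me1 (1.08, edgeR adjusted p = 0.0771), Acly (-1.22, SE 1.01) and Pck2 (-0.34, SE 0.28) were not called.

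The order of the libraries was also read without a model. For 21 of the 30 genes SHR 2, ARB 3 and ARNI 2 were all above the other 6 libraries of the strain, and for 2 (Me2 and Acly) all below them, against 9.38% and 18.1% of all genes. ARNI 2 was the highest of the 9 libraries for 25 genes and the lowest for 3. The share of all genes for which it was highest or lowest was not taken, so this count cannot be read alone. The role sums of pyruvate entry were 1711, 2065 and 2721 CPM in ARB 1 to 3 and those of the shuttle 3781, 3725 and 5806 CPM, both highest in ARB 3, whereas the last role, which holds Acly and Me1, was at 421, 801 and 569 CPM and highest in ARB 2.

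**Figure D3:**
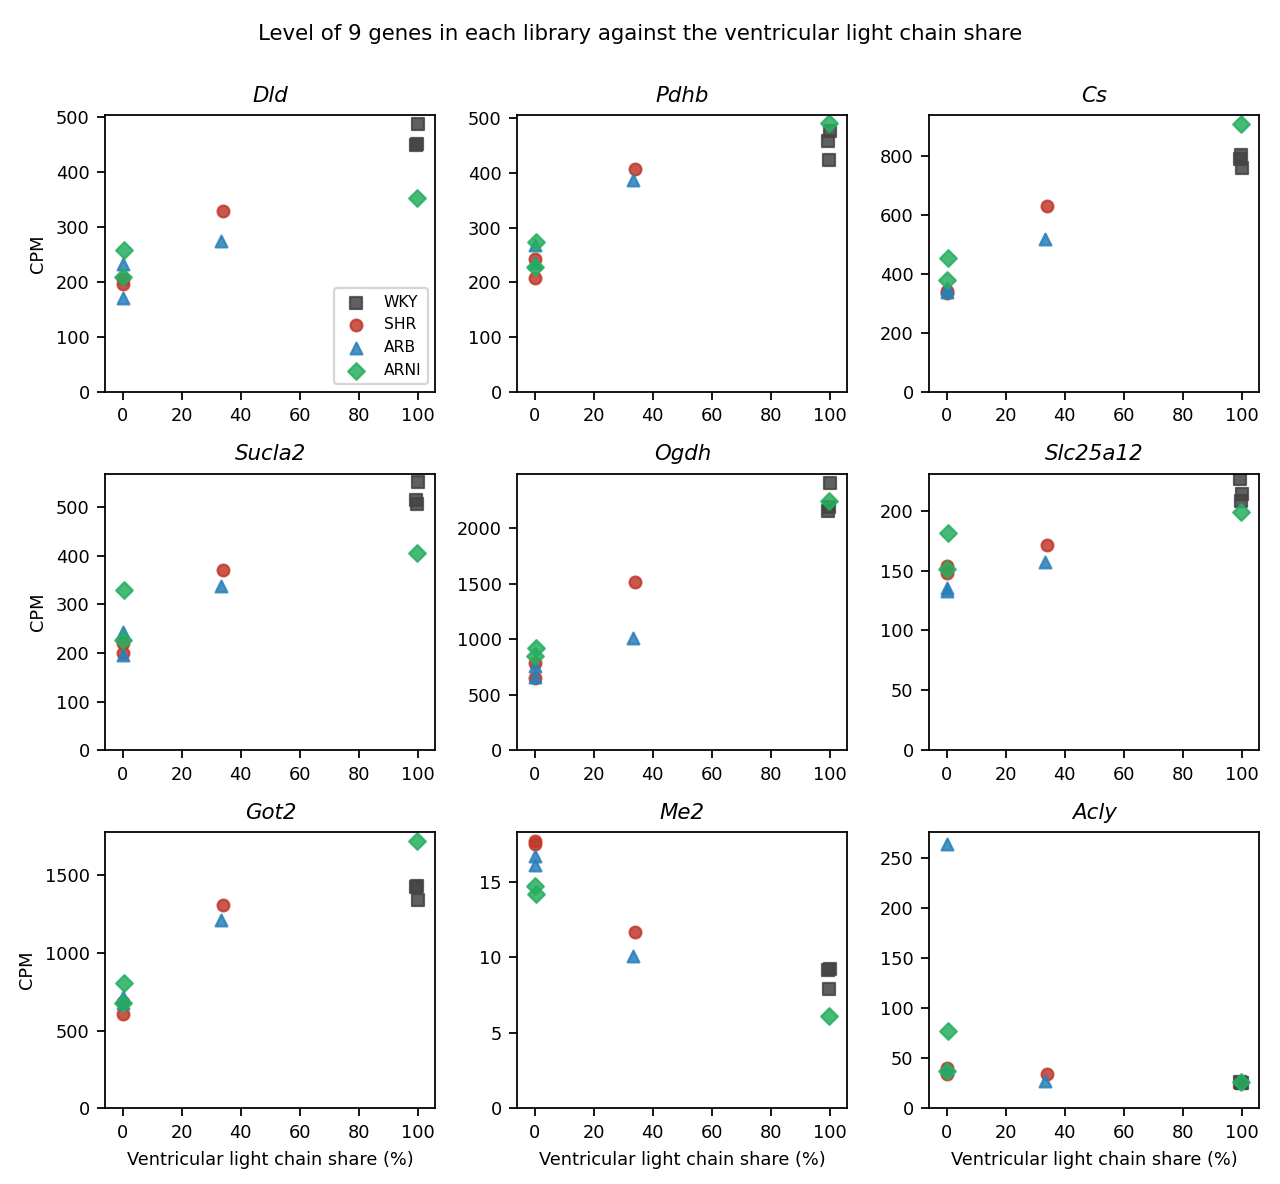
Level in CPM (vertical axes, from 0) of 9 genes in each library against the ventricular light chain share in % (horizontal axes), with a marker shape and colour for each group. For Cs, Ogdh and Got2 the 6 libraries at a share near 0 lie lowest, SHR 2 and ARB 3 in between and ARNI 2 beside or above WKY, whereas for Dld and Sucla2 ARNI 2 (352 and 405 CPM) stays below WKY, and Me2 goes down with the share.

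ARNI 2, whose light chains were as ventricular as those of WKY, allowed the 2 strains to be set side by side at a like share, although with 1 library and under another treatment, so with no test. ARNI 2 was above the range of the 3 WKY libraries for 17 of the 30 genes, within it for 6 and below it for 7, against 26.6% of all genes above and 42% below. The genes above included Got2 (1723 against 1341 to 1431 CPM) and Cs (909 against 761 to 803 CPM), and Ogdh lay within (2250.2 against 2156 to 2407 CPM). The 7 below were Dld, Sucla2, Me2, Pck2, Pdhx, Slc25a12 and Pdha1, at 76.2%, 77.4%, 69.7%, 88.6%, 88.0%, 92.0% and 95.0% of the WKY mean. Of the 30 genes, 5 (Dld, Sucla2, Pdhx, Slc25a12 and Pdha1) were below every WKY library in all 9 libraries of the SHR strain, against 6.28% of all genes. These are among the 6 genes called lower in SHR, and the sixth, Ogdh, was not below WKY in ARNI 2. The 8 ventricular cardiomyocyte markers summed to 19756 CPM in ARNI 2 and to 44061 to 44432 CPM in WKY, a gap that came from Myh7, the slow myosin heavy chain (5907 CPM against 32130 to 32744 CPM in WKY). Myl2, Myl3 and Lbh were higher in ARNI 2 than in any WKY library (4161, 8440 and 1160 CPM against at most 3776, 7632 and 798 CPM). Irx3, Irx4 and Irx5 were lower in ARNI 2 than in any WKY library (18.5, 36.9 and 14.4 CPM against at least 25.2, 38.8 and 18.2 CPM). Hey2 was within the WKY range. The 10 atrial markers summed to 112 CPM in ARNI 2 and to 105 to 328 CPM in WKY. In a single fit of all 12 libraries with the share as a covariate, 0 of the 30 genes were called between SHR and WKY by edgeR, and 1 had an unadjusted p under 0.05. The share hardly varied within WKY, so this contrast leans on the slope set by SHR 2, ARB 3 and ARNI 2. It cannot show whether the strains are alike at a like share. In that fit Dld was at -0.15 (SE 0.27), Sucla2 at -0.18 (SE 0.33) and Slc25a12 at -0.10 (SE 0.16), and Ogdh at 0.19 (SE 0.27).

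ARB and ARNI were each compared with saline-treated SHR, and with each other, to see what either drug changed. Both comparisons share the 3 SHR libraries. In ARB against SHR, 0 of the 30 genes were called by edgeR, against 0% of all 13979 genes tested. None had an unadjusted p under 0.05 (0 genes, against 1.61% of all genes), and 0 were called by DESeq2. In ARNI against SHR, 0 were called by edgeR, against 0% of all 13955 genes, 0 had an unadjusted p under 0.05 (1.63% of all genes), and 0 were called by DESeq2. In ARNI against ARB, 0 were called by edgeR, against 0% of all 13948 genes, 0 had an unadjusted p under 0.05 (3.86% of all genes), and 0 were called by DESeq2. The groups overlapped for all 30 genes in ARB against SHR, where 2.99% of all genes lay without overlap below SHR and 2.4% above, and for all 30 in ARNI against SHR, where 5.19% lay below and 1.37% above.

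The median log2 fold change of the 30 genes was 0.01 for ARB and 0.33 for ARNI against SHR, and 0.29 for ARNI against ARB. The ARNI values turned on ARNI 2: without it the median was -0.10 against SHR and -0.17 against ARB. Without ARB 3 the ARB median was -0.26. With SHR 2, ARB 3 and ARNI 2 all left out, an alternative chosen after seeing the data that leaves 2 libraries of nearly pure atrial light chain in each group, the medians were 0.07, 0.20 and 0.12, and 0 genes were called. The intervals were wide: for Cs the 95% interval was -0.93 to 0.76 in ARB and -0.66 to 1.70 in ARNI, and for Ogdh -1.21 to 0.67 and -0.84 to 1.94. Slc25a12 had the tighter intervals of -0.51 to 0.27 in ARB and -0.21 to 0.72 in ARNI.

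**Figure D4:**
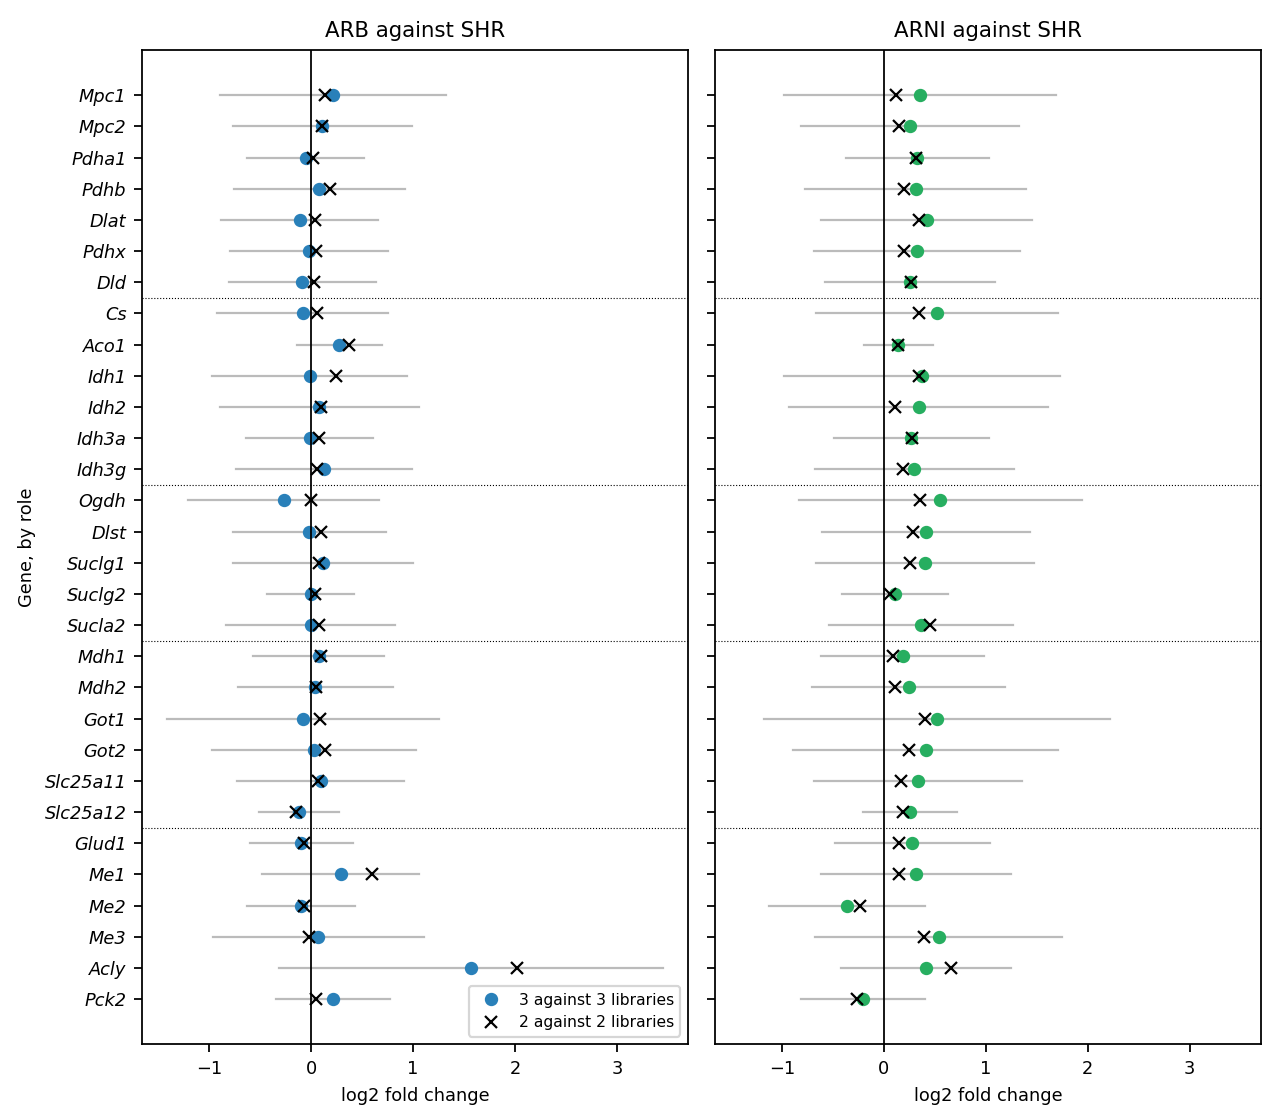
Log2 fold change (horizontal axis) of each gene (vertical axis, by role) in ARB (left) and ARNI (right) against SHR, with coloured points and 95% intervals for 3 against 3 libraries and crosses for 2 against 2, without SHR 2, ARB 3 and ARNI 2. All intervals span 0, and in the right panel most crosses lie nearer to 0 than the points.

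Acly had the largest value in a drug comparison, with 1.57 in ARB against SHR (SE 0.79), and it came from 1 library: without ARB 2 it was -0.06. In ARNI against SHR it was 0.41 (SE 0.34), and -0.08 without ARNI 3. Those 2 libraries also had the highest sums of fat cell markers. Adipoq, a hormone made by fat cells, was at 192 CPM in ARB 2, 61.7 CPM in ARNI 3 and 4.71 CPM or less in the other 10. Plin1, which coats fat droplets, was at 68.9 and 99.5 CPM there and at 7.29 CPM or less elsewhere. Ucp1, the uncoupling protein of brown fat, was at 182 CPM in ARNI 3 and 15.6 CPM in ARB 2. Other brown fat markers did not all follow it. Cidea was highest in ARNI 3 (150 CPM), but in ARB 2 (100 CPM) it was below SHR 1 (120 CPM). Cox7a1 was at 9.10 CPM in ARNI 3 and 4.20 CPM in ARB 2, below WKY (13.4 to 15.8 CPM), and Elovl3 was at 0 in ARNI 3. The 8 fat cell markers together summed to 896 CPM in ARB 2 and 775 CPM in ARNI 3, against 366 to 489 CPM in WKY, 207 to 361 CPM in SHR, and 175 to 484 CPM in the other libraries of the ARB and ARNI groups. Within that list Fabp4 was highest in ARNI 3 (367 CPM) but did not stand out in ARB 2. It was at 336 CPM there, below WKY 3 (359 CPM), ARB 3 (353 CPM) and ARNI 2 (341 CPM). Me1, which makes NADPH for lipid synthesis, was at 243 CPM in ARB 2, its highest value, but at 144 CPM in ARNI 3, within the range of the others. The part of fat cells in these values was not tested.

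**Figure D5:**
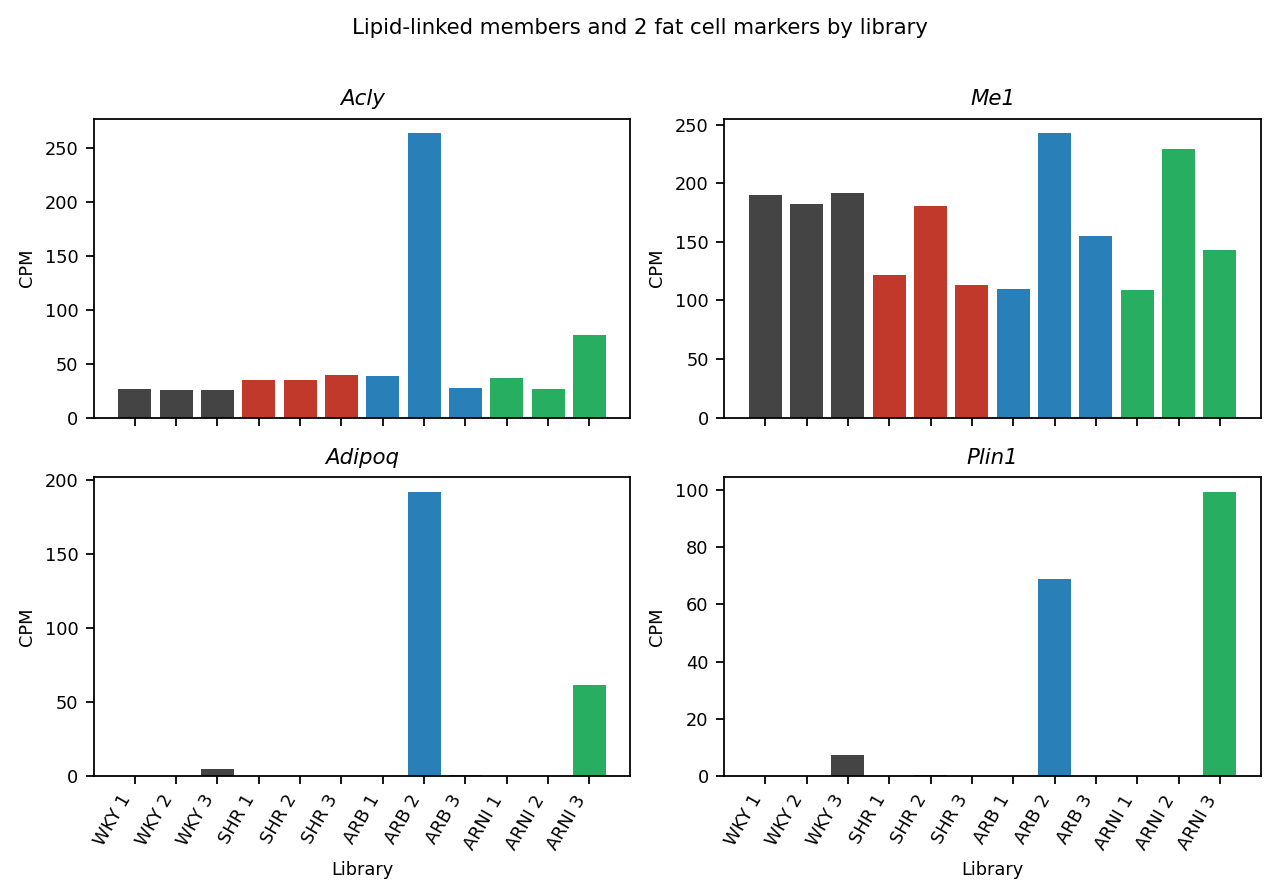
Levels in CPM (vertical axes, from 0) of Acly and Me1 (top) and of the fat cell markers Adipoq and Plin1 (bottom) in the 12 libraries (horizontal axis, coloured by group). Acly, Adipoq and Plin1 are each highest in ARB 2 and ARNI 3, whereas Me1 is highest in ARB 2 and second in ARNI 2.

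Of 36 other genes of the pathway, 34 had counts and 31 were tested. Between SHR and WKY, 5 of the 31 were lower and 1 higher, against the 8.26% and 12.3% of all genes given above. This count of 6 was 23 without SHR 2, 3 without SHR 1, 4 without SHR 3, 2 without WKY 1, 1 without WKY 2 or WKY 3, and 17 by DESeq2. The shares of all genes called in those fits are not given here, so these counts show only how far the calls moved. Those lower were the 2-oxoglutarate dehydrogenase relative Ogdhl (-1.68), the lactate and pyruvate transporter Slc16a1 (-1.49), the glutamate carrier Slc25a22 (-1.27), D-2-hydroxyglutarate dehydrogenase D2hgdh (-1.08) and fumarase Fh (-0.91), and the 1 higher was the mitochondrial alanine aminotransferase Gpt2 (1.31, edgeR adjusted p = 0.0058). Gpt2 was at 8.01, 6.96 and 8.83 CPM in WKY and at 24.4, 17.8 and 22.8 CPM in SHR, and it fell with the ventricular share within the SHR strain (-0.59). With the share, 17 of the 31 rose and 1 fell, against 10.8% and 7.94% of all genes. This count of 18 was 0 with the replicate block and 7 without ARNI 1, again with the shares of all genes in these fits not given here. By p, the first were the NADPH-forming transhydrogenase Nnt (SE 0.21, edgeR adjusted p = 0.00662), the lactate dehydrogenase subunit Ldhb (2.24), the aspartate and glutamate exchanger Slc25a13 (1.14), the lipoic acid synthase Lias (1.25), the carnitine carrier Slc25a20 (2.19) and the isocitrate dehydrogenase subunit Idh3b (1.77). The ratio of Ldhb to Ldha, the form that prevails where lactate is made, was 5.12 to 5.46 in WKY, 4.68 in ARNI 2, 2.72 in SHR 2, 2.42 in ARB 3 and 1.23 to 1.67 in the other 6 libraries. In each of the 3 drug comparisons 0 of the 31 were called by edgeR, with 0, 0 and 2 under an unadjusted p of 0.05, and 0 were called by DESeq2.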

How the data were processed

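RNA of 12 samples labelled as left atrium was sequenced in single-end reads of 50 bases. The authors filtered the reads, mapped them with HISAT2 2.0.4 and Bowtie2 2.2.5 (Rnor_6.0, per the submitters' processing notes) and deposited RSEM's expected counts per gene, without normalization. The annotation is not given in the sources used here. RSEM shares a read among the genes it matches, and 16.9% of the values of the 30 genes were not whole. The deposited table also holds 2 columns of the authors' own comparison of SHR and WKY (a log2 fold change and a p-value), which were not used.

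Counts were rounded and compared with the quasi-likelihood test of edgeR 4.0.16 (R 4.3.3) on all genes passing filterByExpr, with TMM scaling, on the 6 libraries of each pair of groups. The slope on the ventricular light chain share used the 9 libraries of the SHR strain with the group as covariate. Benjamini-Hochberg adjustment ran over all genes tested, with a threshold of 0.05, and differentially expressed genes also needed a log2 fold change of 1 or more in size. SEs and 95% intervals come from the F statistic and its degrees of freedom. CPM were taken on the library totals, and levels were not compared between genes, because transcript lengths were not at hand. The study's methods give 3 WKY rats and 9 SHRs, but the labels do not tie libraries to rats, so p-values measure the spread between libraries. Limits from counts cover counting error only. Replicates differed by more than sampling noise. The steps were tested on simulated data. DESeq2 1.42.0, other scalings and filters, left-out libraries and a block for the replicate number were tried as alternatives.

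Samples of the same number in ARNI and SHR deviated together (r = 0.51, 0.46 and 0.19 across genes for replicates 1 to 3). This counts as a pairing here although the labels give no source for it, and the block changed no call in ARNI against SHR. SHR 2 and ARNI 2 were also the libraries of their groups with the most ventricular light chain (33.9% and 99.8%). The part of that share in these r values was not tested.

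The 30 genes, the pathway list and the marker lists were chosen with earlier results of these data known. Full values are given for the gene with the smallest p in each role, in SHR against WKY and for the slope, and for called genes against the main direction. Called pathway genes are named, at most 6 per comparison by p. Got1, Mdh1, Mdh2, Slc25a11, Mpc1, Pdhx, Aco1, Suclg2 and Me1 were described after their values were seen. Figures were drawn with matplotlib 3.10.9 under Python 3.11.15.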

Additional observations from a re-analysis of the deposited data

How the results depend on the processing

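Between SHR and WKY, where 8 of the 30 genes were called, DESeq2 called 23, the replicate block 0, a single fit of 12 libraries 0, that fit with the ventricular share as covariate 0, SHR 2 alone against WKY 14, and fits without 1 replicate 0 to 28. With the share as covariate the median log2 was 0.28 and Pdhx (0.081), Ogdh (0.19), Me2 (-0.34) and Acly (-0.74) reversed. For the slope, with 25 called, the block called 0 and fits without 1 replicate 13 to 26. The block costs residual degrees of freedom, and replicate numbers did not deviate together between SHR and WKY (r from -0.07 to 0.03), ARB and SHR (-0.25 to 0.42) or ARNI and ARB (-0.45 to 0.52), so there it is a number only. In the drug comparisons the block changed no call of the 30 genes.

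ARB against SHR had 0 calls, but 11 when the untreated group was set by the strain words of the titles, with a median log2 of -0.69. Its median was -0.012 with library totals only and -0.26 to 0.34 without 1 replicate. The ARNI against SHR median was -0.0048 with the share as covariate, -0.41 by the title words and -0.10 to 0.64 without 1 replicate, and the ARNI against ARB median -0.068 with the share and -0.17 to 0.57 without 1 replicate. The mean summed level in WKY was 21266 CPM with TMM-scaled library sizes, against 20298. Of the 31 other pathway genes, 6 were called between SHR and WKY, against 17 by DESeq2, 3 with the block, 3 in the single fit, 0 with the share as covariate, 15 with SHR 2 alone and 1 to 23 without 1 replicate. Their 18 calls for the slope became 0 with the block and 7 to 19 without 1 replicate, and their 0 calls in ARB against SHR became 12 by the title words. Shares of all genes called under these alternatives are not given here, so the counts show only how far the calls moved. The causes of these changes were not tested. Differences within the intervals given for the drug comparisons were not detectable with 3 libraries a group.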

Other observations

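Isoform ratios within a library, which do not depend on the scaling of that library, were taken for other pairs of the 30 genes and are described without a test. The ratio of Ogdh to Dlst, the first and second subunits of the 2-oxoglutarate dehydrogenase complex, was 2.27 ± 0.0724 in WKY (SD, n = 3), 2.05 in ARNI 2, 1.83 in SHR 2 and 1.27 to 1.62 in the other 7 libraries, with ARB 3 at 1.39 among them. The ratio of Mpc1 to Mpc2, the subunits of the pyruvate carrier, was 2.38 to 3.27 over all 12 libraries, with ARNI 2 (3.27) and ARB 3 (3.24) highest. The ratio of mitochondrial Idh2 to cytosolic Idh1 was 34.3 to 37.3 in WKY, and its highest and lowest values lay within 1 group, at 54.2 in ARNI 1 and 28.6 in ARNI 3.

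A few pathway genes, chosen after their values were seen, had high levels in ARB 2 or ARNI 3, the libraries with the highest sums of fat cell markers. Slc25a1, the mitochondrial citrate carrier, was at 44.2 CPM in ARB 2, 15.6 CPM in ARNI 3 and 4.24 to 8.20 CPM in the other 10 libraries. Pyruvate carboxylase Pc was at 183 CPM in ARB 2, 85.5 CPM in ARNI 3 and 45.1 to 79.0 CPM in the others, so that ARNI 3 lay close to the rest. The dicarboxylate carrier Slc25a10 was at 60.6 CPM in ARB 2 but at 26.3 CPM in ARNI 3, near the bottom of the range of 25.6 to 37.3 CPM in the other libraries. Cytosolic phosphoenolpyruvate carboxykinase Pck1, which is active in fat, was at 371 CPM in ARNI 3, 39.4 CPM in ARB 2, 8.71 CPM in WKY 3 and under 0.5 CPM in the others. Some marker lists had 1 library above all others: smooth muscle markers summed to 682 CPM in ARNI 3 (101 to 204 CPM elsewhere), fibroblast markers to 4284 CPM in SHR 3 (1152 to 2967 CPM elsewhere) and erythroid markers to 3845 CPM in ARB 3 (245 to 2167 CPM elsewhere). Neuron markers summed to 90.2 CPM in ARNI 3 (5.33 to 18.8 CPM elsewhere). Not every marker followed its sum. Pdgfra in SHR 3 (97.8 CPM) was below WKY 1 (111 CPM) and WKY 2 (103 CPM), and Tcf21 there (34.1 CPM) was below ARB 3 (39.4 CPM). The erythroid Slc4a1 in ARB 3 (4.20 CPM) was below WKY 3 (10.4 CPM). The part of these marker lists in the levels of the 30 genes was not tested.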
